A study of Danio rerio with 17 samples.

Results

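Potassium channels set the resting potential of neurons and glia and end the action potential, and their genes form a large family in zebrafish. The genes described here were all those whose name in the deposited gene lists begins with *kcn*, which came to 118 of 25432 genes (117 names, since *kcnj11l* stands for 2 gene IDs). They were followed through single cells of the optic tectum, the midbrain centre that receives retinal input in fish, in untreated wild-type larvae. Cells from the dissected tectum and torus longitudinalis were profiled in 7 batches of larvae at 7 days post fertilization (dpf) and 4 batches at 6 dpf, each batch a pool of larvae. The study addressed which transcriptomic cell types make up the larval tectum, and the comparisons below ask which potassium channel genes its cell classes share and which set them apart.

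Voltage-gated subunits of the Kv1 to Kv4 families, with the KCNQ and the eag, erg and elk families, open on depolarization. Calcium-activated BK, SK and IK channels and sodium-activated channels couple potassium outflow to ion entry, inward rectifiers (Kir) include the channels gated by G proteins and by ATP, and tandem-pore channels carry leak current. Modifier subunits (*kcnf*, *kcng*, *kcns* and *kcnv* genes) are silent alone and in mammals join Kv2 subunits, while auxiliary subunits such as Kv beta (*kcnab*) and the KChIPs (*kcnip*) alter channels without forming a pore. These roles are known mainly from mammals. By family the 118 genes were 27 Kir, 21 tandem-pore, 12 eag, erg and elk, 12 modifier, 11 auxiliary, 8 KCNQ, 7 Kv1, 6 Kv3, 5 SK and IK, 3 Kv2, 3 Kv4, 2 sodium-activated genes and 1 BK gene.

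Of 87881 barcodes, 52920 had between 600 and 4000 genes, at most 7500 unique molecular identifiers (UMIs) and at most 10% mitochondrial UMIs, and 45829 were left after cells of the neighbouring habenula and lens and computed doublets were removed. Total UMIs per batch ran from 5073733 to 88294858. Clusters were built without the potassium channel genes, so that these genes took no part in defining the classes, which were named from marker genes. The classes used were neuron-like (36866 cells), progenitor-like (3225), radial glia-like (2172), committed precursor-like (722) and oligodendrocyte lineage-like cells (511), and neurons were split by transmitter into GABAergic-like (13042) and glutamatergic-like (15717). Potassium channel genes held 0.127 to 0.426% of UMIs in the 8 batches read on the HiSeq and 0.527 to 0.697% in the 3 batches read on the NovaSeq, so that the ranges did not overlap. The instrument of each batch was inferred from the study's methods by elimination. Batch was a term of each comparison between classes, and fits within each instrument are given for the comparisons of transmitter classes and of neuron-like with progenitor-like cells.

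A UMI was found for 115 of the 118 genes; *kcnj1a.3*, *kcnj1a.4* and *KCNJ15* had none. The *kcnj1a* genes number several near-identical copies, whose reads may not be told apart. One of the 2 features named *kcnj11l* (ENSDARG00000089255) carries the symbol *cd59b* in the gene name table and not a potassium channel name. It is called the second *kcnj11l* feature below and its values are not read as those of a channel.

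Neuron-like cells carried UMIs of a median of 6 potassium channel genes, and 16 genes were found in over 10% and 72 in over 1% of these cells with all batches pooled. The most widely found was *kcnma1a*, the pore subunit of the BK channel, in 66.1% ± 16.9 of neuron-like cells (SD, n = 11 batches). Free RNA in the droplets also gives UMIs in cells that do not express a gene, and in 301 cells of microglia-like or erythrocyte-like clusters, called background cells here, *kcnma1a* was found in 36.9% (Clopper-Pearson 95% interval 31.4 to 42.6%, counting error only), at a median depth of 2433 UMIs against 2011 UMIs in neuron-like cells. After each cell was thinned to 1000 UMIs, with shallower cells left out, the shares were 51.9% of neuron-like and 21.8% of pooled background cells, and 8 genes in place of 16 were found in over 10% of neuron-like cells. *kcnma1a* was thus above background in neurons at both depths. Free RNA raises the share and shallow depth lowers it, so the share alone does not give how many cells express the gene. Whether the background cells themselves express a given gene was not tested.

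The next most frequent genes in neuron-like cells were Kv3 and Kv4 subunits and an SK channel. Kv3 channels are known in mammals for fast repolarization and Kv4 channels for the transient A-type current. The Kv3 gene *kcnc1a* was found in 31.5% ± 8.74 of neuron-like cells, against 10.3% of background cells. For the Kv4 genes *kcnd2* and *kcnd3* the shares were 31.7% ± 6.94 and 29.5% ± 9.52, against 14.6 and 12.0%. *kcnn1a*, an SK channel, was found in 30.9% ± 10.8 of neuron-like cells and 11.3% of the background cells, and *kcnip1b*, a KChIP of the kind that partners Kv4 in mammals, in 22.0% ± 7.104 and 7.31%. Each of these 5 genes was also above background in thinned cells.

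Among the 20 genes found in most neuron-like cells, *kcnab2a*, a Kv beta subunit, was the exception. It was found in 18.7% ± 9.23 of neuron-like cells but in 22.9% of background cells, and in 11.0 and 13.3% after thinning. With all neuron-like cells pooled the share was 24.1%, so it was near background and is not by itself read as expression. Against progenitor-like cells the gene was nevertheless higher in neuron-like cells, by 1.46 ± 0.30 (SE, log2) in thinned cells (edgeR adjusted p = 1.85e-05). *KCNN2*, a further SK channel, was found in 12.5% ± 4.76 of neuron-like cells, against 1.99% of background cells. Others of the 20, by their share of neuron-like cells, were the Kv3 genes *kcnc2* (11.3%) and *kcnc1b* (5.77%), the elk and erg genes *kcnh3* (13.8%) and *kcnh7* (13.4%), and the M-current genes *kcnq3* (9.52%) and *kcnq2b* (9.08%).

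The other families were sparser. The Kir genes found most widely were the near-equal *kcnj19a* (5.90% ± 2.44 of neuron-like cells, against 2.66% of background cells) and *kcnj3b* (5.85% ± 2.66 against 1.66%), with *kcnj3a* at 5.63% ± 3.07 against 2.33%. Of the 27 Kir features 10, the second *kcnj11l* feature among them, were in over 1% of pooled neuron-like cells. *kcna1a* led the Kv1 genes (5.74% ± 3.64 against 1.99%) and *kcnk10a* the tandem-pore genes (5.01% ± 2.65 against 1.99%). Of the modifiers *KCNV1* was found in 6.59% ± 2.66 of neuron-like cells and 0.997% of background cells, whereas *kcng2*, at 1.59% ± 1.09 against 2.33%, was not above background. The sodium-activated *kcnt1* was found in 2.30% ± 1.24 against 0.664%. In all, 46 of the 118 genes were found in under 1% of pooled neuron-like cells.

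**Figure D1:**
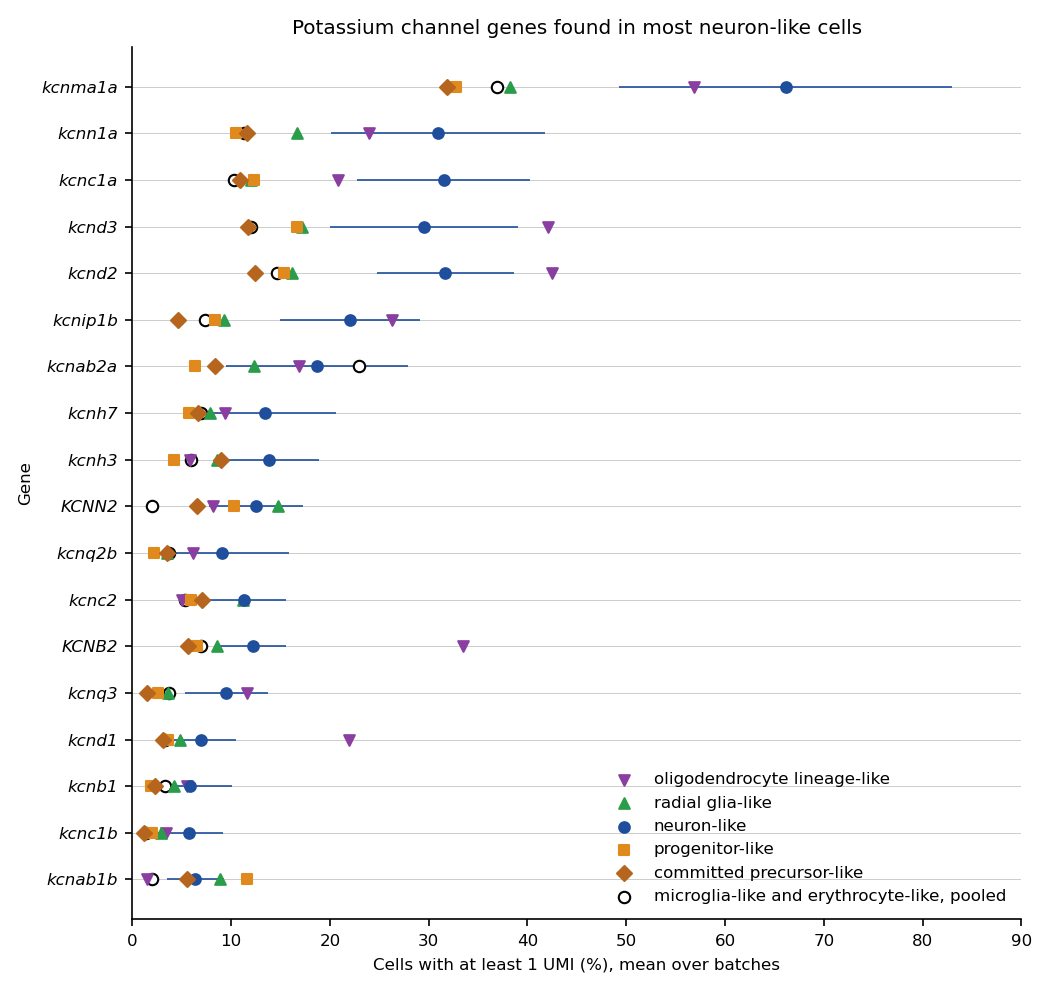
Share of cells with at least 1 UMI (x axis, %, mean over batches) for 18 of the 20 potassium channel genes found in most neuron-like cells, in order of their share of all such cells pooled. Filled symbols are cell classes, bars the SD over 11 batches for neuron-like cells, and open circles the pooled share in background cells. *kcnma1a* leads in neuron-like cells, and *kcnab2a* lies below its open circle there. Several genes have their highest share in oligodendrocyte lineage-like cells, whose median depth was higher. Among them are *KCNB2*, *kcnd1*, *kcnd2*, *kcnd3*, *kcnip1b* and *kcnq3*.

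To ask whether inhibitory and excitatory tectal neurons use different potassium channels, counts were summed per batch and transmitter class and compared with edgeR's quasi-likelihood test with batch as a block and Benjamini-Hochberg adjustment over 10586 genes. A filter on low counts left 53 of the 118 potassium channel genes to be tested. Of these 53, 27 were higher and 14 lower in GABAergic-like neurons and 12 did not pass the threshold of an adjusted p of 0.05. Over all genes tested, 16.4% were called higher and 22.4% lower in GABAergic-like neurons. The median log2 fold change was 0.25 for the 53 potassium channel genes and -0.05 for all genes tested. With batch left out of the model, 8 potassium channel genes were called higher and 5 lower. Fits within each instrument were added after seeing the data. The 3 NovaSeq batches alone called 33 of 93 tested genes higher and 20 lower, with 39 of the 41 calls shared in the same direction. The 8 HiSeq batches alone called 12 of 36 higher and 5 lower, so that 17 of the 41 calls were kept. Both fits use batches of the main fit, so shared calls are no separate support. The share called over all genes was not worked out for them or for the model without batch.

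The families did not move as blocks. All 3 Kv4 genes and 4 of 5 tested Kv3 genes were higher in GABAergic-like neurons, as were 5 of 6 tested Kir genes and 4 of 7 tested auxiliary genes, with none of the auxiliary genes lower. In the eag, erg and elk family 1 of 10 tested genes was higher and 5 were lower, and in the KCNQ family 1 of 5 was higher and 3 were lower. Both Kv1 genes tested were called, *kcna1a* higher by 0.62 ± 0.12 (SE, log2) and *kcna2b* lower, at -0.29 ± 0.10. *KCNB2*, a Kv2 subunit, passed at a log2 fold change of 0.30 ± 0.11 (edgeR adjusted p = 0.041), but it was called in only 4 of the 11 fits that each left out 1 batch. Without batch 8, 10, 11 or 12 the filter on low counts removed up to 5 of the 41 called genes, *kcnh6a* and *kcnh8* among them, and up to 6 others lost their call, without batch 12.

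*kcnab2b*, a Kv beta subunit, showed the largest difference on the log2 scale. Its level was 13.73, 33.8 and 67.2 CPM (counts relative to the total of the sum; lowest, median and highest of 11 batches) in GABAergic-like neurons and 3.67, 8.44 and 13.67 CPM in glutamatergic-like neurons. The ranges lay side by side without overlapping, and the level was higher in GABAergic-like neurons in 11 of 11 batches (log2 fold change 2.29 ± 0.15, edgeR adjusted p = 2.03e-11). Counts were low in some batches, with 3 GABAergic-like and 3 glutamatergic-like UMIs in batch 2, and 7 and 2 in batch 6. *kcnab2b* was not among the genes tested in the HiSeq batches alone. The paralogous beta subunit gene *kcnab1b* had 44.9, 60.7 and 119.7 CPM in GABAergic-like neurons and 14.7, 24.3 and 39.5 CPM in glutamatergic-like neurons, again with no overlap (1.25 ± 0.12, adjusted p = 1.57e-08).

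*kcnd1*, a Kv4 subunit, was at 46.4, 98.3 and 216.6 CPM in GABAergic-like neurons and 7.35, 23.4 and 34.7 CPM in glutamatergic-like neurons. No glutamatergic-like sum reached the lowest GABAergic-like sum, and the log2 fold change was 2.08 ± 0.20 (adjusted p = 1.95e-08). It was found in 11.8% ± 5.87 of GABAergic-like and 4.11% ± 2.06 of glutamatergic-like cells, against 3.32% of background cells, so that the glutamatergic-like share was near background; median depths were 2118, 2170 and 2433 UMIs. The other Kv4 genes were higher by 0.29 ± 0.07 for *kcnd2* and 0.25 ± 0.08 for *kcnd3*. The KChIP genes went the same way as *kcnd1*: *kcnip1b* was higher by 0.91 ± 0.10 and *KCNIP1* by 1.03 ± 0.13, while *KCNIP4* (0.16 ± 0.15) did not pass. For *kcnd1* the log2 fold change was 2.73 ± 0.10 in the NovaSeq batches alone and 1.52 ± 0.23 in the HiSeq batches alone, a difference between instruments that was not tested.

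*kcnh2a*, an erg channel gene whose human counterpart repolarizes the heart, was the exception in its family. It had 0, 16.5 and 32.9 CPM in GABAergic-like neurons and 1.28, 4.55 and 9.90 CPM in glutamatergic-like neurons, with overlapping ranges and a higher level in GABAergic-like neurons in 10 of 11 batches (2.18 ± 0.20, adjusted p = 8.57e-09). The eag gene *kcnh1a* and the elk gene *kcnh4b* were lower in GABAergic-like neurons in 11 of 11 batches, at -1.60 ± 0.20 and -1.56 ± 0.22, and *kcnh8* (elk) and *kcnh6a* (erg) were lower at -1.01 ± 0.15 and -0.69 ± 0.16. The share of *kcnh6a*, 1.52% of pooled neuron-like cells, was below the 2.99% of background cells. For *kcnh1a* the value was -2.13 ± 0.13 in the NovaSeq batches alone and -0.72 ± 0.19 in the HiSeq batches alone. *kcnh3* (0.10 ± 0.09) and *kcnh7* (-0.11 ± 0.09), the family members found in most neurons, did not pass the threshold.

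On the side of the glutamatergic-like neurons the largest difference was that of *KCNV1*, a silent modifier subunit. It was at 3.37, 13.7 and 79.0 CPM in GABAergic-like neurons and 27.6, 56.0 and 85.8 CPM in glutamatergic-like neurons, and was lower in GABAergic-like neurons in 10 of 11 batches (-1.91 ± 0.15, adjusted p = 5.45e-10). In the remaining batch, batch 2, the order was turned, with 7 UMIs in its GABAergic-like and 21 in its glutamatergic-like sum, and the ranges overlapped. The tandem-pore gene *kcnk10b* (-1.20 ± 0.16), the G protein-gated Kir gene *kcnj3a* (-0.72 ± 0.12), the SK gene *kcnn1b* (-0.66 ± 0.14) and the KCNQ gene *kcnq1.1* (-0.66 ± 0.18) were also lower, and the last of these had the lower level in only 6 of 11 batches and did not pass with DESeq2 (-0.41 ± 0.26, adjusted p = 0.22).

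The remaining named genes higher in GABAergic-like neurons were *kcnq5b* (1.23 ± 0.17), a KCNQ subunit, *kcng2* (1.197 ± 0.15), a modifier, *kcnc1b* (1.08 ± 0.15), a Kv3 subunit, and the sodium-activated *kcnt1* (0.96 ± 0.21). Of these 4, *kcnq5b* was higher in 11 of 11 batches, *kcnc1b* in 10, and *kcng2* and *kcnt1* in 9. The share of *kcnq5b* was 6.21% of pooled neuron-like cells against 11.3% of background cells, and that of *kcng2* 2.27 against 2.33%. Neither share was thus above that of background cells in neurons as a whole. For *kcnq5b* the share was the higher in background cells, and whether they express it themselves was not tested. The KCNQ genes differed in size between instruments: *kcnq5b* was at 1.84 ± 0.11 in the NovaSeq and 0.65 ± 0.18 in the HiSeq batches alone, and *kcnq5a* (-0.92 ± 0.16 in all batches) at -1.38 ± 0.10 in the NovaSeq and -0.28 ± 0.17 in the HiSeq batches alone, where it did not pass (edgeR adjusted p = 0.23). *kcnma1a*, the gene found in most cells, was higher by only 0.31 ± 0.07, with 534, 912 and 2302 CPM in GABAergic-like and 325, 741 and 1910 CPM in glutamatergic-like neurons, ranges that overlapped widely. Of 30 genes listed as partners of potassium channels, such as anchoring proteins and pumps that restore the potassium gradient, 26 were in the files and 22 were tested, with 10 higher and 4 lower. They included *cntnap2a* (0.77 ± 0.08), known in mammals for placing Kv1 channels along axons, the scaffold *dlg2* (0.73 ± 0.09), the sodium-potassium pump subunit *atp1a3a* (0.69 ± 0.09) and, lower, *lgi1b* (-0.79 ± 0.13).

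**Figure D2:**
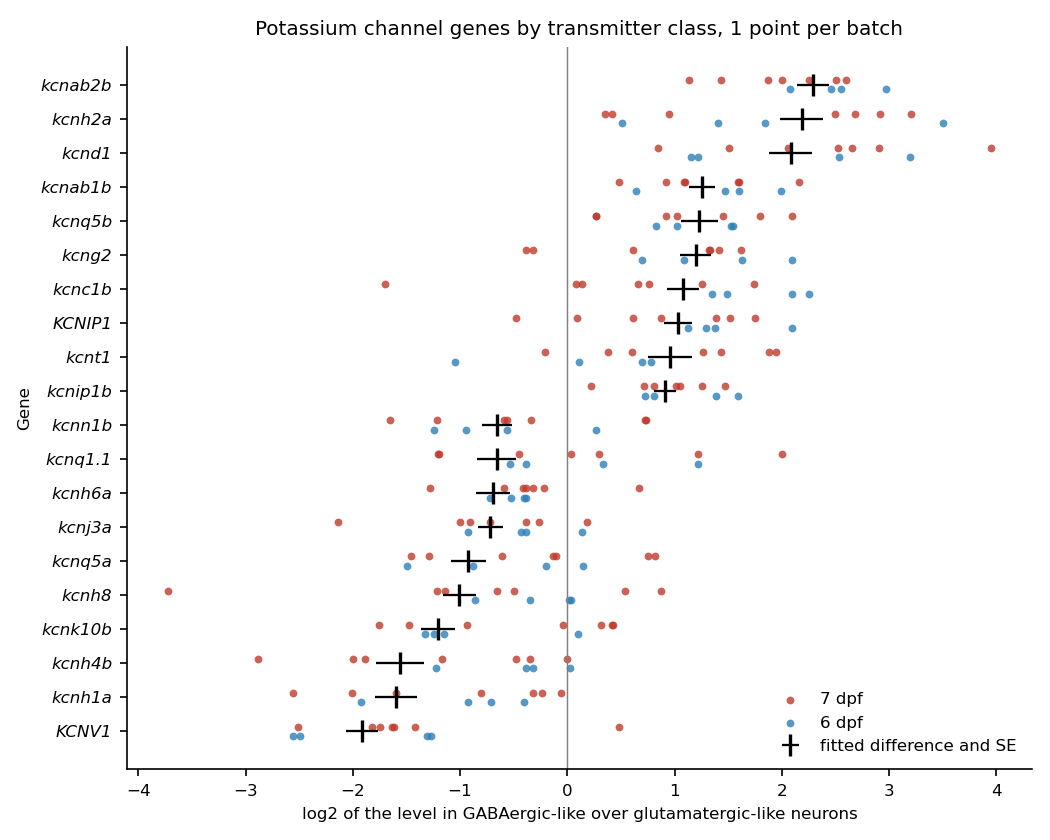
Log2 ratio of the level in GABAergic-like over glutamatergic-like neurons (x axis) for the 20 named potassium channel genes, 1 point per batch (7 dpf red, 6 dpf blue), with the fitted difference and its SE in black. Points of *kcnab2b*, *kcnd1* and *kcnab1b* all lie right of 0, while those of *kcnq1.1* spread over both sides.

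Many zebrafish genes persist as a pair of paralogs, named a and b, from the genome duplication of teleost fish. The log2 ratio of GABAergic-like to glutamatergic-like levels was set against its paralog's within each batch by an exact sign-flip test (2-sided) over batches. Of 27 pairs, 10 had enough UMIs (20 or more of each paralog) in 6 or more batches, and 6 of the 10 passed an adjusted p of 0.05. The classes of neurons used for these ratios are the same as above, so the pairs restate its values within batches.

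In the Kv3 pair *kcnc1a* and *kcnc1b* the paralogs had opposite signs. The log2 ratio averaged -0.49 ± 0.23 for *kcnc1a* and 1.201 ± 0.68 for *kcnc1b* (SD, n = 8 batches), and *kcnc1a* had the lower ratio in 8 of 8 batches (exact sign-flip p = 0.0078, which is the smallest that 8 batches allow, adjusted p = 0.026). Opposite signs were also seen in the KCNQ pair, with -0.56 ± 0.78 for *kcnq5a* and 1.14 ± 0.64 for *kcnq5b* (9 of 9 batches, exact p = 0.0039, adjusted p = 0.026). The G protein-gated Kir pair was a further case, with -0.70 ± 0.69 for *kcnj3a* and 0.53 ± 0.18 for *kcnj3b* (8 of 8 batches, exact p = 0.0078, adjusted p = 0.026). In each of these 3 pairs paralog b was the GABAergic-leaning one, although *kcnq5b* was not above background in neurons as a whole. The *kcnh5*, *kcnk10* and *kcnn1* pairs, given below, also had opposite signs, but with paralog a the GABAergic-leaning one.

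The Kv beta pairs differed in size more than in sign. *kcnab2a* averaged 0.24 ± 0.24 and *kcnab2b* 2.25 ± 0.61 (7 of 7 batches, exact p = 0.016, adjusted p = 0.031), and *kcnab1a* averaged 0.26 ± 0.63 and *kcnab1b* 1.28 ± 0.54 (8 of 9 batches, exact p = 0.012, adjusted p = 0.029). Of these genes *kcnab2a* was near background in neurons as a whole, as given above. In the eag pair the direction was the other way, with 0.23 ± 0.50 for *kcnh5a* and -0.47 ± 0.58 for *kcnh5b* (7 of 8 batches, exact p = 0.023, adjusted p = 0.039). The *kcnj19*, *kcnk10* and *kcnn1* pairs did not pass, though with a minimum of 10 UMIs, where 8 of 12 pairs passed, *kcnk10* and *kcnn1* did (exact sign-flip test, adjusted p = 0.041 each). With transmitter class set cell by cell from the transmitter genes, 0 of 8 pairs passed the adjusted threshold by the exact sign-flip test and 5 had an unadjusted p under 0.05. Paralog a minus paralog b was then -1.29 for *kcnc1*, -1.75 for *kcnq5*, -0.71 for *kcnj3*, -1.46 for *kcnab2* and -1.11 for *kcnab1*, with exact adjusted p of 0.0625 to 0.075 (*kcnc1* reached the smallest raw p that its 8 batches allow, 0.0078).

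**Figure D3:**
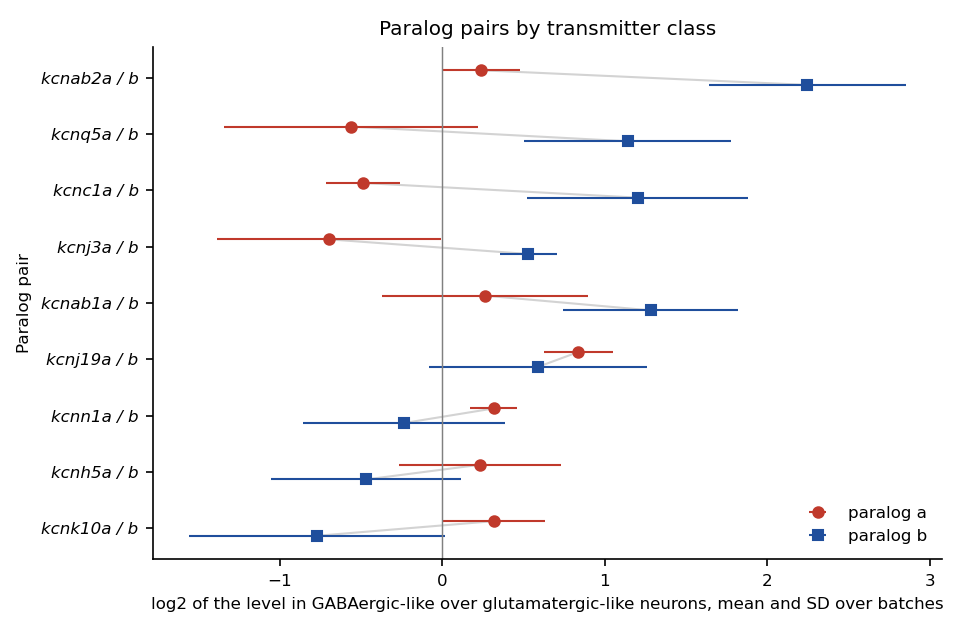
Mean and SD over batches of the log2 ratio of GABAergic-like to glutamatergic-like level (x axis) for paralog a (red circles) and paralog b (blue squares) of 9 of the pairs tested. The means of the *kcnc1*, *kcnq5* and *kcnj3* pairs fall on opposite sides of 0, with paralog b on the right. Those of the *kcnh5*, *kcnk10* and *kcnn1* pairs do so with paralog a on the right.

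Beneath the transmitter classes, neurons fell into 27 clusters, and the named genes differed in how evenly they were spread over them. Cluster values are a description, as mean CPM over batches with 20 or more cells of the cluster, with no test. Of the genes with over 50 CPM in any cluster *kcnn1a* had the lowest ratio of highest to median cluster, 1.29, and *kcnab2a*, *kcnq3*, *kcnq2b* and *kcnc1a* had ratios of 1.55 to 1.71. The share of *kcnab2a* was near background in neurons as a whole, so its even spread is not by itself read as expression. *kcnma1a* reached 2455 CPM in its highest cluster, 1.91 times the median of 1288 CPM, and 264 CPM in its lowest.

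*kcnh2a* was at the other extreme. In a GABAergic-like cluster of 400 cells led by *esrrb*, *tspan18a* and *plcl1* it averaged 664 ± 264 CPM (SD, n = 5 batches) and was found in 58.0% of cells. The next cluster was at 51.9 CPM and the median cluster at 3.78 CPM. By batch the level in the *esrrb* cluster was 408, 485, 577.5, 790 and 1061 CPM, so that each of the 5 batches was above the mean of every other cluster. This cluster also held the highest mean levels of the Kv3 gene *kcnc1b* (194 ± 71.1 CPM) and of the erg gene *kcnh7* (264 ± 68.8 CPM).

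Other genes marked other GABAergic-like clusters. *KCNB2* averaged 1263 ± 556 CPM in the cluster led by *INSM2*, against 439 CPM in the next and 126 CPM in the median cluster, and its 5 batches lay between 748 and 2214 CPM. *kcnh3* peaked in the same cluster at 474 ± 161 CPM. In the cluster led by *pcbp3* and *sv2ca*, *kcnab2b* (202 ± 79.7 CPM, next 68.9 CPM), *kcnq5b* (298 ± 198 CPM, next 80.3 CPM), *kcnab1b* (182 ± 89.6 CPM) and *KCNIP1* (116 ± 76.4 CPM) all had their highest mean. *kcnq5b* was found in 26.6% of cells of this cluster (mean over batches), against 11.3% of background cells. The *npy* cluster was highest for *kcnd1* (331 ± 185 CPM, next 147 CPM), *kcnip1b* (639 ± 205 CPM), *KCNN2* (240 ± 104 CPM) and *kcnt1* (54.0 ± 43.04 CPM).

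Glutamatergic-like clusters led for the genes named next, which were lower in GABAergic-like neurons. The *itpr1b* cluster had the highest mean of *kcnn1b* (87.2 ± 62.1 CPM), *kcnq5a* (266 ± 210 CPM), *kcnh6a* (54.4 ± 39.7 CPM), *kcnj3a* (106 ± 81.8 CPM), *kcnh1a* (94.8 ± 57.3 CPM) and *kcnh4b* (61.3 ± 54.0 CPM), each over 5 batches and each with an SD of over 50% of its mean. *KCNV1* was highest in the cluster led by *sema5a* and *nr5a2* (126 ± 62.1 CPM), closely followed by another glutamatergic-like cluster at 107 CPM. These leads are within the spread between batches for *KCNV1*, whose batches ran from 21.0 to 220 CPM.

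**Figure D4:**
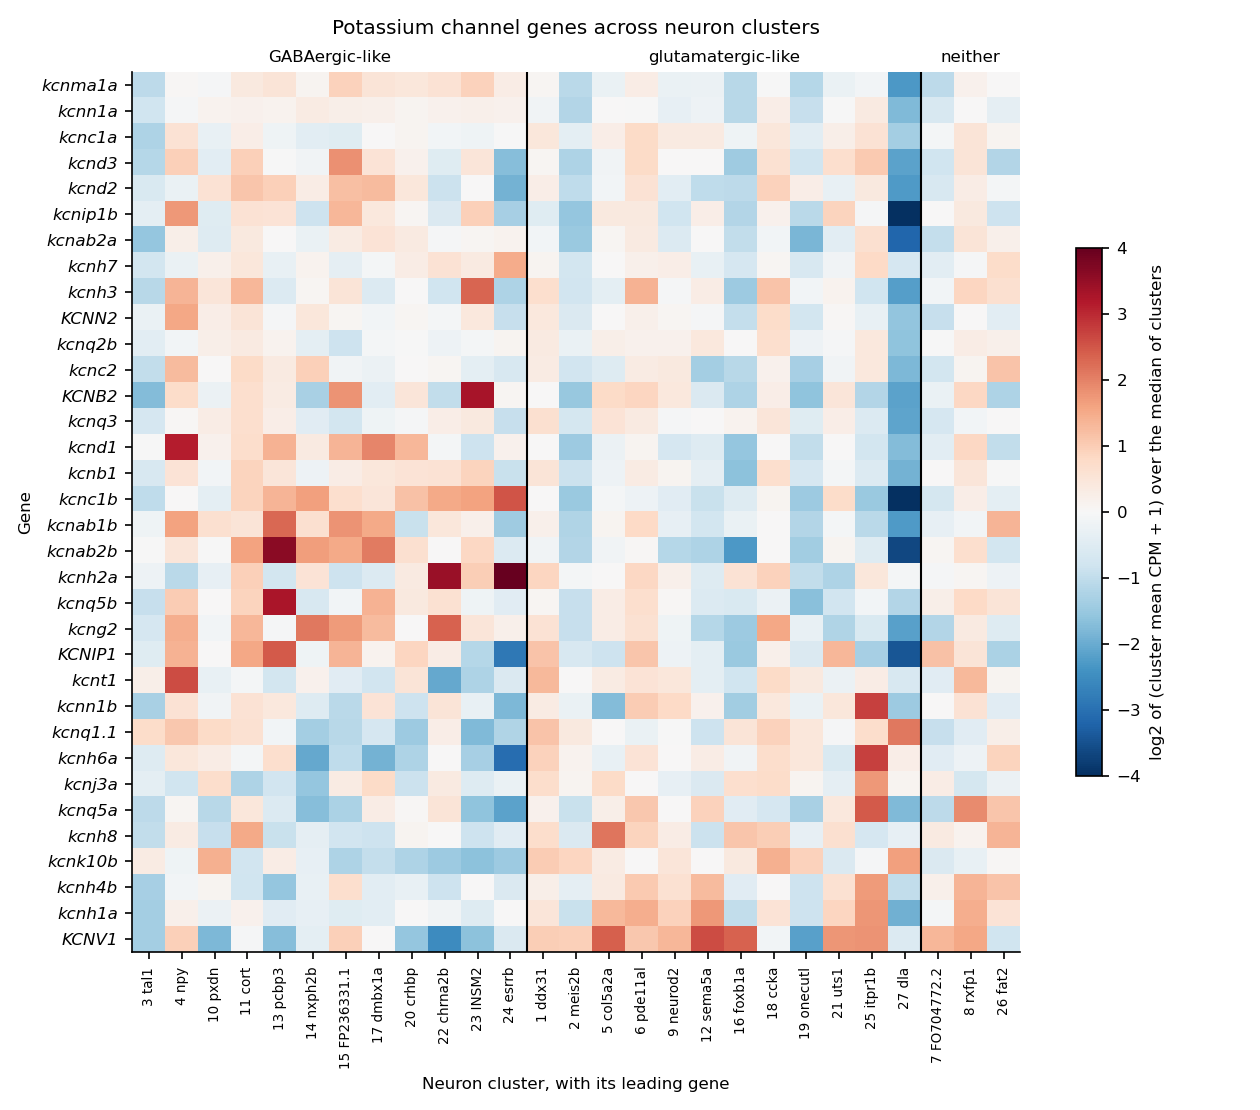
Potassium channel genes (rows: 18 of the 20 found in most neurons, then the further genes named between transmitter classes) over the 27 neuron clusters (columns, with number and leading gene, GABAergic-like on the left). Colour is the log2 of the cluster's mean CPM + 1 over the median of all clusters. *kcnh2a* stands out in the *esrrb* cluster, *KCNB2* in the *INSM2* cluster and *kcnab2b* and *kcnq5b* in the *pcbp3* cluster, while *kcnma1a* and *kcnn1a* have no cluster far above their median.

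The tectum still adds neurons at this age, and the comparison with dividing and newly committed cells asks which channel genes come with differentiation. Neuron-like cells were set against progenitor-like and committed precursor-like cells, with radial glia-like and oligodendrocyte lineage-like cells, in 1 edgeR fit of sums per batch and class (6530 genes, batch as block). The filter on low counts left 25 potassium channel genes. A gene high in neuron-like sums could pass it through those sums alone. Counts of genes called higher or lower in neuron-like cells are thus tied to the filter. These comparisons all use the same neuron-like sums and are not independent of each other. Each neuron-like cell carried UMIs of 5.38 ± 1.93 potassium channel genes (mean per batch, SD, n = 11), each progenitor-like cell 2.59 ± 0.88 and each committed precursor-like cell 2.61 ± 0.96, with 3.31, 1.11 and 1.19 after thinning, and 1.53 in thinned background cells.

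Against progenitor-like cells 19 of the 25 genes were higher and 1 lower in neuron-like cells, where 35.3% of all genes were called higher and 31.2% lower. The median log2 fold change was 1.42 for the 25 genes and 0.04 for all genes. *kcnn1a* was at 133, 237 and 340 CPM (lowest, median, highest batch) in neuron-like and 8.05, 26.1 and 110 CPM in progenitor-like cells, without overlap (1.98 ± 0.25, edgeR adjusted p = 6.54e-10). *kcnd2* was at 216, 313 and 623 CPM in neuron-like and 9.78, 45.7 and 181 CPM in progenitor-like cells, also without overlap (1.85 ± 0.26). All 4 tested Kv3 genes and all 3 Kv4 genes were higher, as were *kcnma1a* (1.95 ± 0.22), *kcnh3* (1.98 ± 0.28), *kcnip1b* (1.81 ± 0.29) and *kcnq3* (1.74 ± 0.28).

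The gene lower in neuron-like cells was the Kv beta subunit *kcnab1b*, at 27.2, 39.5 and 80.3 CPM in neuron-like and 17.7, 45.2 and 85.0 CPM in progenitor-like cells. The fitted log2 fold change was -1.09 ± 0.29 (adjusted p = 0.00069), but the batch ranges overlapped and the level was lower in only 6 of 11 batches. The median levels were close, and CPM lacks the scaling between sums (TMM) that the fit applies. A drop of the fitted size was thus not seen in CPM. In the 3 NovaSeq batches the sign was turned (0.51 ± 0.46, edgeR adjusted p = 0.41). Of the 20 calls, 15 were shared by the NovaSeq batches alone and 18 by the HiSeq batches alone, all in the same direction. Progenitor-like cells held summed neuronal markers of 746 to 6965 CPM, against 7785 to 12508 CPM in neuron-like cells and 571 to 4150 CPM in background cells. With the progenitor sub-clusters that carried neuronal markers left out, an alternative chosen after seeing the data, all 20 calls were shared in the same direction, with *kcnab1b* at -1.34 ± 0.27 (adjusted p = 2.09e-05) and *kcnn1a* at 2.08 ± 0.25. Tested without the filter on low counts, 48 potassium channel genes were higher and 7 lower among 24667 genes, of which 15.6% were called higher and 20.9% lower.

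Against committed precursor-like cells 18 of the 25 genes were higher in neuron-like cells and 0 lower, where 29.5% of all genes were called higher and 22.9% lower. None of the 25 genes had an unadjusted p under 0.05 in the lower direction. DESeq2 also called 0 lower, but it was run on the same filtered genes and is no separate support. *kcnip1b* (64.2, 174 and 289 CPM in neuron-like, 0, 20.4 and 47.9 CPM in committed precursor-like cells) and *kcnq3* (31.6, 53.5 and 79.5 CPM, and 0, 2.18 and 17.5 CPM) did not overlap between the classes. Their log2 fold changes, 2.49 ± 0.36 and 2.45 ± 0.40, were the largest of the 25. Without the filter on low counts 39 genes were higher and 2 lower, where 14.6% of all genes were called higher and 5.43% lower. Of the 16 partner genes tested, 14 were higher and 0 lower in neuron-like than in progenitor-like cells, and 10 were higher and 3 lower than in committed precursor-like cells, the 3 including *lgi1b* (-2.23 ± 0.33).

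Oligodendrocytes wrap axons in myelin, and in mammals inward rectifiers of their lineage take up potassium released by active axons. The oligodendrocyte lineage-like class held all 11 markers listed for it, summed to 659 to 7335 CPM per batch, and 15 to 105 cells in each of the 11 batches. Its sums also held 3092 to 6422 CPM of neuronal markers and 864 to 18590 CPM of radial glia markers, against 7785 to 12508 CPM of neuronal markers in neuron-like and 571 to 4150 CPM in background cells. Against neuron-like cells 6 of the 25 tested features were higher and 12 lower in oligodendrocyte lineage-like cells, where 22.0% of all genes were called higher and 23.4% lower. A feature passed the filter on low counts if enough sums of any class were high. *kcng1*, *kcnq2a* and the second *kcnj11l* feature were low in neuron-like sums and passed it through glial sums. Their higher calls are thus tied to the filter. The median log2 fold change was -0.50 for the 25 features and -0.09 for all genes.

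The potassium channel gene with the largest difference was *kcng1*, a modifier subunit. It was at 20.6, 167 and 460 CPM in oligodendrocyte lineage-like cells and 0, 3.06 and 9.39 CPM in neuron-like cells. No neuron-like sum reached the lowest oligodendrocyte lineage-like sum, and the gene was higher in 11 of 11 batches (5.43 ± 0.35, edgeR adjusted p = 1.99e-20). It was found in 27.9% of oligodendrocyte lineage-like cells, 0.65% of neuron-like cells and 0.33% of background cells, at median depths of 2492, 2011 and 2433 UMIs, and in thinned cells in 13.1, 0.33 and 0.35%. In radial glia-like cells it was found in 0.86%. *KCNB2*, from the Kv2 family that such modifiers join in mammals, was at 34.7, 216 and 537 CPM in oligodendrocyte lineage-like and 65.2, 111 and 224 CPM in neuron-like cells, with overlapping ranges (1.21 ± 0.34, adjusted p = 0.0024).

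*kcnq2a*, a KCNQ subunit, was next, with 0, 61.7 and 240 CPM in oligodendrocyte lineage-like and 0, 3.54 and 9.93 CPM in neuron-like cells (4.42 ± 0.37, adjusted p = 2.05e-15). The ranges overlapped at the low end. Its paralog *kcnq2b*, one of the genes found in most neurons, went the other way (-0.97 ± 0.33). *kcnq2a* was found in 17.9% of oligodendrocyte lineage-like cells and 0.70% of neuron-like cells, but also in 5.98% of background cells. After thinning the shares were 7.45, 0.31 and 1.05%. As the neuron-like share was below that of background cells, the latter is not read as free RNA alone. Whether background cells express this gene was not tested. The Kv4 gene *kcnd1* (1.31 ± 0.29) and the tandem-pore gene *kcnk10a* (1.22 ± 0.30) were higher too, with overlapping ranges.

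When the free RNA profile was subtracted, an alternative chosen after seeing the data, *kcng1* stayed higher (5.69 ± 0.50) but *kcnd1* and *KCNB2* did not pass (edgeR adjusted p = 0.10 and 0.15), and *kcnq2a* and *kcnk10a* were not among the 17 features tested. This step took away 69.3 to 85.6% of the UMIs of a batch and moved the median gene by -2.83 log2, so the lost calls do not show that these genes were background. In cells with 3 or more UMIs of the lineage's own markers, also chosen after seeing the data (324 of 511 cells, 7 batches), the log2 fold changes were 5.94 ± 0.39 for *kcng1*, 4.83 ± 0.39 for *kcnq2a*, 1.76 ± 0.28 for *kcnd1*, 1.54 ± 0.35 for *kcnk10a* and 1.68 ± 0.33 for *KCNB2*. Without batch 5 or without batch 8 the filter on low counts removed *kcng1*, *kcnq2a* and *kcnk10a*, and 3 features in place of 6 were called higher. The feature with the largest difference was the second *kcnj11l* feature, with 574, 2638 and 3877 CPM in oligodendrocyte lineage-like and 2.00, 5.63 and 15.4 CPM in neuron-like cells. As its ID bears the symbol *cd59b*, it is not counted as a channel of the lineage, and without it oligodendrocyte lineage-like cells carried 5.96 potassium channel genes per cell and neuron-like cells 5.37, or 2.86 and 3.30 after thinning.

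Of the 25 features 7 passed in neither direction. The Kv3 genes *kcnc2* (-1.81 ± 0.32) and *kcnc1a* (-1.24 ± 0.22) were lower, as were *kcnma1a* (-1.15 ± 0.22), *KCNN2* (-1.44 ± 0.32), *kcnn1a* (-1.16 ± 0.26) and *kcnh3* (-1.83 ± 0.34). The Kv beta gene *kcnab1b* was nearly absent, with 7 UMIs in all, at 0, 4.32 and 35.9 CPM in oligodendrocyte lineage-like and 27.2, 39.5 and 80.3 CPM in neuron-like cells (-3.05 ± 0.56, adjusted p = 9.23e-06). Its share of 1.45% was not above the 1.99% in background cells and is not by itself read as expression. The Kv4 genes *kcnd2* and *kcnd3* were found in 42.5 and 42.0% of oligodendrocyte lineage-like and 31.7 and 29.5% of neuron-like cells, at median depths of 2492 and 2011 UMIs. After thinning they were 21.5 and 22.2% against 22.2 and 20.4%, and the log2 fold changes of -0.38 ± 0.25 and -0.16 ± 0.23 did not pass.

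The glial Kir gene *kcnj10a*, whose mammalian counterpart carries the potassium uptake of astrocytes and oligodendrocytes, was too rare to pass the filter on low counts. It had 24 UMIs in oligodendrocyte lineage-like, 56 in radial glia-like and 9 in neuron-like cells, and 0 in committed precursor-like cells and in the 301 background cells, which allows a share of up to 0.997%. It was found in 4.50% of pooled oligodendrocyte lineage-like and 2.21% of pooled radial glia-like cells, against 0.024% of neuron-like cells. In tests without the filter it was higher by 6.67 ± 0.61 in oligodendrocyte lineage-like cells (in 7 of 11 batches) and by 5.84 ± 0.52 in radial glia-like cells (in 5 of 11 batches), and it was absent in several glial sums. In all, 7 features were higher and 35 lower in oligodendrocyte lineage-like cells without the filter, where 7.63% of all genes were called higher and 14.1% lower.

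**Figure D5:**
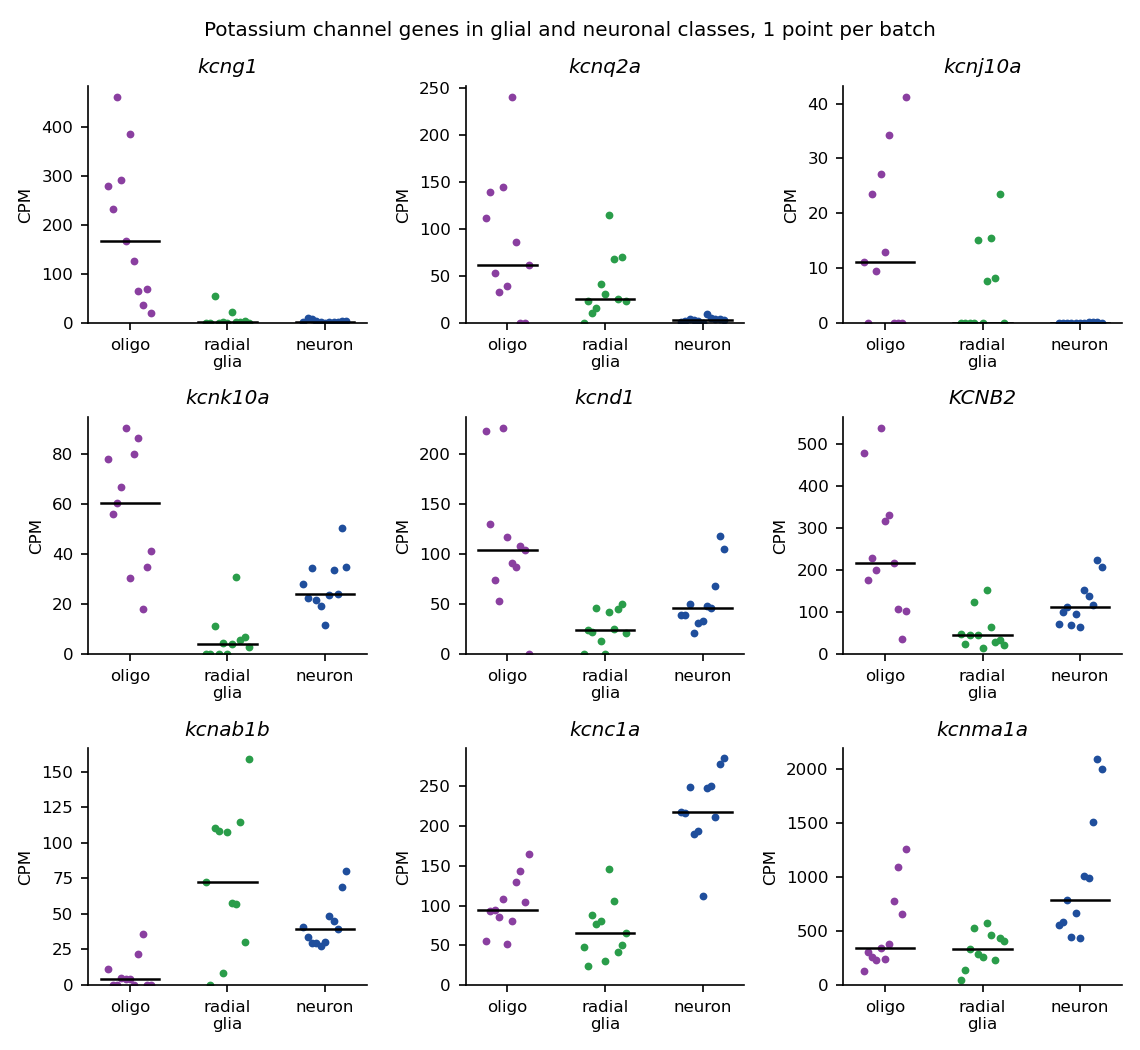
CPM (y axis, from 0, own scale per gene) of 9 potassium channel genes in oligodendrocyte lineage-like, radial glia-like and neuron-like cells, 1 point per batch in order of batch number, with the median as a line. *kcng1* is highest in the oligodendrocyte lineage-like sums, with radial glia-like sums of at most 55.2 CPM, *kcnq2a* and *kcnj10a* in both glial classes, and *kcnc1a* and *kcnma1a* in neuron-like sums.

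Radial glia are the ependymoglial and stem-like glia of the fish brain. The radial glia-like class was uneven over batches: its 9 listed markers summed to between 1403 CPM (batch 3) and 76239 CPM (batch 5), and were at most 4903 CPM in batches 2, 3, 4, 10 and 12. In batch 3 the class held 5070 CPM of oligodendrocyte lineage markers, more than its 1403 CPM of radial glia markers. In batch 2 it held 12999 CPM of epidermis markers, against 3072 CPM of radial glia markers. The oligodendrocyte lineage-like sums of batches 2, 3 and 4 held more radial glia markers (7969, 5594 and 7261 CPM) than the radial glia-like sums (3072, 1403 and 3126 CPM). The class name is thus in doubt in batches 2, 3 and 4. The main fit and the counts of batches for this class include them. Neuronal markers summed to 804 to 3807 CPM, against 7785 to 12508 CPM in neuron-like and 571 to 4150 CPM in background cells, and subtraction of the free RNA profile, an alternative chosen after seeing the data, took away 33.2 to 88.1% of the UMIs of a batch. Against neuron-like cells 4 of the 25 features were higher and 16 lower in radial glia-like cells, where 27.1% of all genes were called higher and 29.5% lower. Of the features called higher, *kcnq2a* and the second *kcnj11l* feature passed the filter on low counts through glial sums, as above.

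*kcnq2a* was the channel gene with the largest difference, at 0, 25.1 and 115 CPM in radial glia-like and 0, 3.54 and 9.93 CPM in neuron-like cells. It was higher in 10 of 11 batches, with ranges that overlapped at the low end (3.40 ± 0.36, edgeR adjusted p = 2.13e-12), and in 1281 cells with 3 or more UMIs of radial glia markers and none of the oligodendrocyte lineage markers, an alternative chosen after seeing the data, the value was 3.73 ± 0.36. Its share of 6.39% of radial glia-like cells was close to the 5.98% of background cells, at median depths of 1757.5 and 2433 UMIs, and after thinning the shares were 3.16 and 1.05%. The SK gene *kcnn3* was at 0, 66.3 and 108 CPM in radial glia-like and 21.5, 42.8 and 68.1 CPM in neuron-like cells (0.77 ± 0.29, adjusted p = 0.021), and its call was lost without batch 5 and without batch 8.

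The remaining calls in this direction were weaker. *kcnab1b* was at 0, 72.2 and 159 CPM in radial glia-like and 27.2, 39.5 and 80.3 CPM in neuron-like cells (0.74 ± 0.30, adjusted p = 0.030). The call was lost without batch 1, 3, 4, 6, 10 or 12 and in the cells gated on radial glia markers (0.10 ± 0.35, edgeR adjusted p = 0.83), and with doublets kept it turned to -0.91 ± 0.32 (edgeR adjusted p = 0.012). The second *kcnj11l* feature was high in batch 3 (696 CPM), the batch with the oligodendrocyte lineage markers, and did not pass in the gated cells (0.61 ± 0.39, adjusted p = 0.19). Without batch 5 or 8, and in the gated cells, 2 of the 4 features were called higher.

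With free RNA subtracted 17 features were tested, of which 3 were higher and 11 lower, all 14 shared in the same direction. *kcnn3* (1.12 ± 0.42, edgeR adjusted p = 0.015), *kcnab1b* (1.101 ± 0.46, adjusted p = 0.028) and the second *kcnj11l* feature were the 3, and *kcnq2a* was not tested.

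Among the 16 genes lower in radial glia-like cells, *kcnd2* was at 0, 98.8 and 276 CPM in radial glia-like and 216, 313 and 623 CPM in neuron-like cells (-1.72 ± 0.27, adjusted p = 1.89e-07). It was lower in 11 of 11 batches, those where the class name is in doubt included, although the ranges overlapped. *kcnc1a* (-1.70 ± 0.22), *kcnq3* (-1.65 ± 0.30), *kcnd3* (-1.43 ± 0.25) and *kcnk10a* (-1.75 ± 0.36) were likewise lower in 11 of 11 batches. With free RNA subtracted the values were -5.10 ± 0.73 for *kcnd2*, -3.53 ± 0.51 for *kcnc1a* and -2.26 ± 0.44 for *kcnd3*. The subtraction took all neuronal marker UMIs of a glial sum as free RNA, and it moved the median gene by -1.48 log2. It lowers genes of neurons by construction, so these values and the lower calls after subtraction are no separate evidence of a lower level. *KCNN2* (0.12 ± 0.25) and *kcnc2* (-0.30 ± 0.25) did not pass. *KCNN2* was found in 14.7% of radial glia-like cells and 12.5% of neuron-like cells, both above the background of 1.99%, and in 8.37, 7.16 and 1.40% after thinning.

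Without the filter on low counts 16 features were higher and 42 lower in radial glia-like cells, where 24.9% of all genes were called higher and 14.4% lower. Named after their values were seen, *kcnb2* (2.33 ± 0.40) and the Kir gene *kcnj13* (1.93 ± 0.36) were among the 16. *kcnb2*, a gene ID apart from *KCNB2*, was found in 6.97% ± 10.3 of radial glia-like cells (SD, n = 11 batches). This share was uneven, from 0 to 31.7% by batch, against 0.98% of neuron-like and 1.99% of background cells. The level of *kcnb2*, 0, 15.3 and 178 CPM in radial glia-like cells, overlapped the 0.95, 5.63 and 10.1 CPM of neuron-like cells. The IK gene *kcnn4* (2.08 ± 0.33) was found in 6.97% of radial glia-like, 1.35% of neuron-like and 14.6% of background cells. As the neuron-like share was far below that of background cells, the latter is not read as free RNA alone for this gene. Whether the radial glia-like share is expression was not tested. Of the 16 partner genes tested, 1 was higher (*lgi1b*, 1.49 ± 0.32) and 10 were lower in radial glia-like cells, and 1 was higher (*dpp6b*, 0.76 ± 0.23, a Kv4 partner in mammals) and 9 were lower in oligodendrocyte lineage-like cells.

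Age was compared over batches within neuron-like cells, 7 batches at 7 dpf against 4 batches at 6 dpf, with the sequencer as a term. Of 80 potassium channel genes tested by edgeR 0 passed the adjusted threshold and 16 had an unadjusted p under 0.05, and over all 15577 genes 0.00642% were called in either direction and 1480 had an unadjusted p under 0.05. *kcnip1b* was at 168, 228 and 289 CPM in 7 dpf and 64.2, 129 and 161 CPM in 6 dpf neurons, ranges that did not overlap (0.83 ± 0.23, adjusted p = 0.33). *KCNIP1* (1.26 ± 0.35) and *kcna1b* (1.25 ± 0.35) had the larger fitted differences, with overlapping ranges and the same adjusted p. DESeq2 called 1 potassium channel gene, *kcnip1b* (adjusted p = 0.048), among 103 of the 15577 genes, of which 4838 had no adjusted p. In all, 23 partner genes were tested with 0 called by edgeR. For 1 batch counted at 7 dpf, batch 8, a second label names 6 dpf.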

How the data were processed

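Droplet-based (Chromium 3′ v3) libraries of 11 batches on 12 lanes were used. The deposited matrices hold UMI counts per gene and barcode, which the authors made with Cell Ranger 7.1.0 on GRCz11 with Ensembl gene models, without normalization. Each batch pooled dissected larvae and was the replicate; batch 8 was taken as 7 dpf from its age label. The study's methods name the HiSeq for the first 8 batches and the NovaSeq for the last 3, which they number otherwise than the deposited data. Batches 10, 11 and 12 were therefore taken as NovaSeq batches by elimination.

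Cells had to hold 600 to 4000 detected genes, no more than 7500 UMIs and no more than 10% of UMIs from mitochondrial genes. Habenula and lens cells (*gng8*, *kiss1*, *crygm2d13*) and doublets by an artificial-doublet score were removed. Clusters (2000 variable genes, 25 components, batch-corrected, Python 3.11.15, scikit-learn 1.9.0, igraph 0.11.9) left out potassium channel genes and 42 immediate early genes, and were named by markers, so names may differ from those of the study. Any 2 lanes shared 0 to 107 barcodes.

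UMI counts were summed per batch and class (10 cells or more) and tested with edgeR 4.0.16 (R 4.3.3; TMM, filterByExpr, quasi-likelihood, batch as block; sequencer as term for age), with Benjamini-Hochberg adjustment over all genes tested and a threshold of 0.05. DESeq2 1.42.0 was an alternative. CPM values are not scaled by TMM, so ratios of CPM can differ from fitted log2 fold changes. Pairing by batch comes from the shared larvae: deviations of same-batch sums correlated at 0.34 to 0.94 for transmitter classes, and at 0.07 to 0.75 for the other comparisons. Error bars are the SE of the fit, or the SD over batches where said. Paralog ratios had 0.5 UMI added. The edgeR script was tested on simulated data.

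Named genes were, per comparison, the 10 genes in each direction with the largest log2 change among those past the threshold with 100 or more UMIs, and the 20 genes found in most neurons. Members and lists were chosen with earlier results of these data known. Alternatives were doublets kept, a higher gene minimum, thinning, no filter, larger sums, no block, each batch left out and, chosen after seeing the data, single instruments, free RNA subtraction, marker-gated glia and stricter progenitors. Some members that meet the rule for named genes are counted but not reported by name here.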

Additional observations from a re-analysis of the deposited data

How the results depend on the processing

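With cells thinned to 1000 UMIs, 17 potassium channel genes were higher and 8 lower in GABAergic-like than in glutamatergic-like neurons. In neuron-like cells 9 were higher and 0 lower than in progenitor-like cells, and 8 were higher than in committed precursor-like cells. Against neuron-like cells 1 feature was higher and 9 lower in radial glia-like cells, and 2 were higher and 4 lower in oligodendrocyte lineage-like cells. The 1 in radial glia-like cells was the second *kcnj11l* feature, which is not read as a channel. The 2 in oligodendrocyte lineage-like cells were that feature and *KCNB2*. Thinning also left fewer genes to test. Of 10586 genes tested between transmitter classes 7894 remained, and of 6530 in the fit of the other classes 2945 remained. The share called over all genes was not worked out for thinning, for no block or for single instruments. Counts under these settings are therefore not read against such a share. In thinned cells 8 genes were found in over 10% of neuron-like cells. With no replicate block for batch, 8 were higher and 5 lower between transmitter classes, and 13 of the 41 calls were kept. HiSeq batches alone gave 12 higher and 5 lower, all 17 shared, and NovaSeq batches alone 33 and 20.

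Without the filter on low counts, 48 genes were higher and 7 lower in neuron-like than in progenitor-like cells, 39 and 2 against committed precursor-like cells, 16 and 42 in radial glia-like cells, and 35 lower in oligodendrocyte lineage-like cells. The count lower against progenitor-like cells was 2 with doublets kept, with at least 800 genes per cell, and with stricter progenitors. Sums of at least 20 cells gave 25 lower in radial glia-like cells, and gating on markers 2 higher in that class. Free RNA subtraction gave 2 higher in oligodendrocyte lineage-like cells, *kcng1* and the second *kcnj11l* feature. DESeq2 called 1 gene by age. With transmitter class per cell, 0 paralog pairs passed the adjusted threshold and 5 had an exact unadjusted p under 0.05.

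Leaving out 1 batch at a time gave 1 to 2 lower against progenitor-like cells, 2 to 4 higher in radial glia-like cells and 3 to 6 higher in oligodendrocyte lineage-like cells. *kcnab1b* reversed to 0.51 (edgeR adjusted p = 0.41) against progenitor-like cells in NovaSeq batches, and to -0.91 (edgeR adjusted p = 0.012) in radial glia-like cells with doublets kept; the cause was not tested. Of named genes, outside the fits that left out a batch, 166 of 176 results between transmitter classes kept their direction and call and 10 lost the call. The 176 leave out named genes that the filter on low counts removed in a setting. With HiSeq batches alone 10 of the 20 named genes kept the call and 1 lost it, and in thinned cells 13 kept it. The rest were not tested there. These genes were named because they passed in the same data.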

Other observations

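*kcnj19b*, a Kir gene named after its values were seen, varied between batches within 1 neuron cluster, that led by *fat2* and *galn*. Its level there was 910, 850 and 639 CPM in batches 1, 3 and 4, and 118, 91.6, 29.5 and 4.95 CPM in batches 8, 10, 11 and 12, so the batches fell into separate ranges. The next cluster averaged 93.2 CPM and the median cluster 12.5 CPM. *kcnj5*, a further Kir gene named after its values were seen, averaged 169.9 ± 57.9 CPM (SD, n = 6 batches) in a GABAergic-like cluster where *kcnd3* also had its highest mean, against 53.4 CPM in the next cluster.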
